A study of Solanum lycopersicum with 6 samples.

Results

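Transcripts of ascorbate metabolism were examined in tomato fruit wall (pericarp, cultivar Ailsa Craig) at 37 days after anthesis. The gene set comprised the 66 of 36224 rows of the deposited gene table that carry the ascorbate and aldarate pathway code ko00053 and are not described as a glutathione S-transferase. Fruit of transgenic tomato overexpressing the histone demethylase JMJ6 (JMJ6-OE) was compared with wild-type fruit (WT), with 3 libraries in each group and the same cultivar, fruit age and greenhouse conditions (16 h light, 23 °C). The sources used here do not give the promoter that drives the transgene, the number of transgenic lines or whether replicates came from separate plants. The p-values therefore reflect only how far the 6 libraries spread, which may be technical. The title of the study ties JMJ6 to removal of H3K27 methylation and to ripening, and the comparison addresses which of these genes differ when JMJ6 is overexpressed.

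Ascorbate (vitamin C) is made in plants mainly from GDP-mannose through L-galactose, and its last step takes place at the inner mitochondrial membrane. Ascorbate peroxidases spend ascorbate to reduce hydrogen peroxide, and ascorbate oxidases spend it in the cell wall. The oxidised forms, monodehydroascorbate and dehydroascorbate, are returned to ascorbate by monodehydroascorbate reductases and dehydroascorbate reductases, the second of which use glutathione. In tomato fruit this cycle keeps ascorbate reduced while ripening produces reactive oxygen. The members were therefore ordered into synthesis (9 genes), the uronic acid route (12), oxidation (17), recycling (6), aldehyde dehydrogenases that the pathway map also lists (16) and other members (6).

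Library totals were 32218345, 36299263 and 30508225 counts in JMJ6-OE and 28539410, 36487547 and 36237783 counts in WT. JMJ6 was matched with uncertainty to Solyc06g008490.3, the 1 of 24 rows described as a JmjC or demethylase gene that lies on chromosome 6. That row carries the symbol JMJ703 and is described as a putative lysine-specific demethylase JMJ16, not as JMJ6. It stood at 31.5, 37.4 and 41.3 CPM (counts scaled to a common library size) in JMJ6-OE and at 26.9, 23.5 and 25.5 CPM in WT. Its log2 fold change was 0.54 ± 0.12 (SE) with an adjusted p of 0.014. The adjusted p came to 0.055 when JMJ6-OE replicate 2 was left out and to 0.054 when WT replicate 2 was left out, which ended the call. Ripening transcripts differed strongly at the same fruit age. Polygalacturonase PG2 (Solyc10g080210.2) stood at 3867 to 5100 CPM in JMJ6-OE and at 36.4 to 48.8 CPM in WT, phytoene synthase PSY1 (Solyc03g031860.3) at 3620 to 6466 CPM in JMJ6-OE and 289.1 to 507.9 CPM in WT, and the MADS-box row Solyc05g012020.3, taken as the ripening regulator RIN although the table does not name it so, at 293 to 581.4 CPM in JMJ6-OE and 22.3 to 61.1 CPM in WT. An effect of JMJ6 and a difference in ripening stage cannot be told apart for any gene below. JMJ6-OE replicate 1 was the lowest of its group in 80.9% of all genes called higher, and in 12 of the 15 members called higher, which is 80% of them. Members called numbered 15 higher and 9 lower without that library.

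In JMJ6-OE, 5 of 6 recycling genes and 5 of 9 ascorbate peroxidase genes were higher, and the cytosolic APX2 was the most abundant of these. The thylakoid-bound APXT was lower and synthesis genes went both ways. Of the 66 members, 12 had no count in any library, 48 passed the filter on low counts and 18 did not. With edgeR's quasi-likelihood test and p-values adjusted by Benjamini-Hochberg over all tested genes (threshold 0.05), 15 of the 48 tested members were higher in JMJ6-OE, 8 were lower and 25 were not called. The called share was 47.9%, against 34.3% of all 20143 tested genes, of which 17.5% were called higher and 16.8% lower. Of the tested members, 4 were called at least 2-fold higher and 3 at least 2-fold lower, and 14.7% of all tested genes were called with a 2-fold difference in either direction. For 29 of the 48 no JMJ6-OE library lay within the range of WT, where 51.4% of all tested genes were separated in this way. The median log2 fold change was 0.14 over the tested members and -0.01 over all tested genes. When libraries were scaled to their totals alone, as the deposited FPKM are, the median of all genes moved by -0.19. The split of all calls was then 2231 higher and 4949 lower instead of 3517 and 3394, and that of the members 12 and 11.

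**Figure D1:**
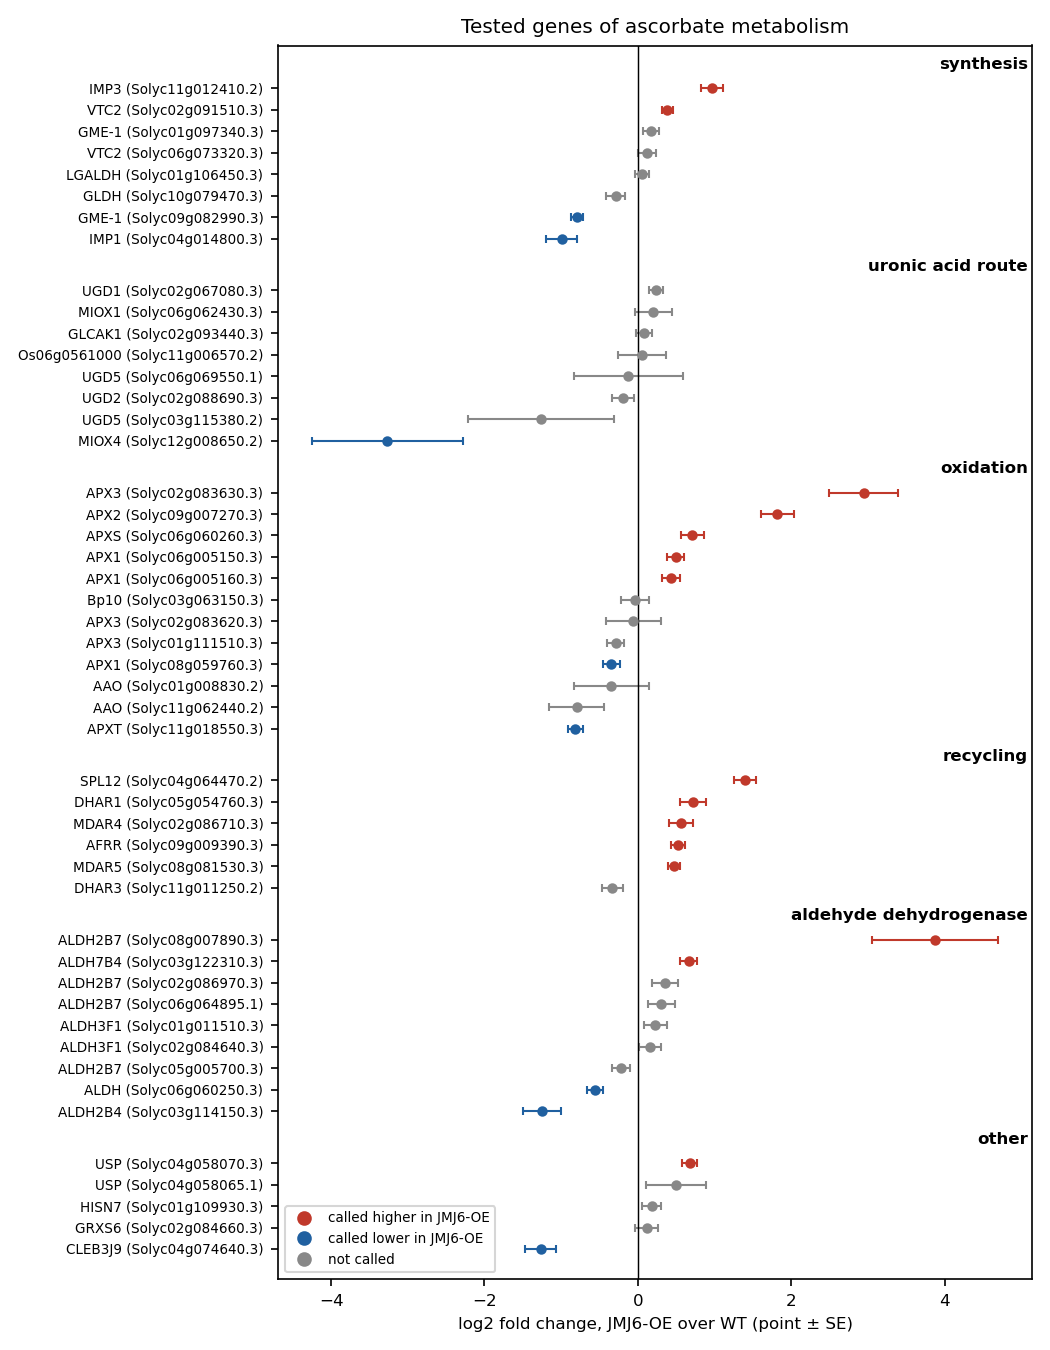
Log2 fold change of JMJ6-OE over WT (horizontal axis, point ± SE, n = 3 libraries per group) for the 48 tested members, grouped by role. Recycling points lie to the right except DHAR3, while synthesis and oxidation each hold genes on both sides, among them APX2 at 1.82 and APXT at -0.82.

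In the synthesis route, the more abundant GDP-mannose epimerase gene fell, the most abundant GDP-L-galactose phosphorylase gene was not called, and the inositol monophosphatase genes moved in opposite directions. Of the 8 tested synthesis genes 2 were higher, 2 were lower and 4 were not called. The called share was 50%, against 34.3% of all tested genes.

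GDP-mannose epimerase turns GDP-mannose into GDP-L-galactose, and 2 members carry its symbol GME-1. The gene Solyc09g082990.3 on chromosome 9 stood at 90.2, 81.9 and 83.1 CPM in JMJ6-OE and at 154.9, 145.2 and 142.5 CPM in WT. No JMJ6-OE library reached the lowest WT library, and the gene fell 1.73-fold (log2 fold change -0.79 ± 0.08, adjusted p = 0.00067). The copy Solyc01g097340.3 on chromosome 1 stood at 38.1, 37.6 and 43.5 CPM in JMJ6-OE and at 38.6, 31.9 and 35.6 CPM in WT. Its groups overlapped, and its log2 fold change of 0.17 had a 95% interval of -0.08 to 0.42 (adjusted p = 0.26). Per length, in FPKM scaled by the TMM factors, the levels of the chromosome 9 gene were 32.6 ± 1.71 in JMJ6-OE and 56.55 ± 2.49 in WT (SD, n = 3), and those of the chromosome 1 gene 23.6 ± 1.95 in JMJ6-OE and 21.0 ± 1.996 in WT. The chromosome 9 gene made up 6.93% to 7.53% of the summed synthesis transcripts in JMJ6-OE and 12.7% to 14.1% in WT.

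GDP-L-galactose phosphorylase, named VTC2 after the vitamin C mutant of Arabidopsis, catalyses the committed step and is regarded as a main control point of the route. Its gene Solyc06g073320.3 on chromosome 6 was the most abundant synthesis transcript, at 229.0 ± 17.0 TMM-scaled FPKM in JMJ6-OE and 211.5 ± 19.0 in WT. Its libraries stood at 553.3, 538 and 479.8 CPM in JMJ6-OE and at 511.1, 433.6 and 506.5 CPM in WT. These ranges overlapped, and the log2 fold change of 0.11 had a 95% interval of -0.16 to 0.39 (adjusted p = 0.48). The sign of this value turned when libraries were scaled to their totals alone (-0.07). The second VTC2 gene, Solyc02g091510.3 on chromosome 2, stood at 150.3, 150.5 and 152.6 CPM in JMJ6-OE and at 110.4, 118.9 and 117.5 CPM in WT. It was 1.31-fold higher with hardly any spread among the overexpressing libraries (log2 fold change 0.39 ± 0.08, adjusted p = 0.0078), but it was not called with library totals alone (log2 fold change 0.20, adjusted p = 0.1, range over all alternatives 2.8e-05 to 0.1).

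Release of free L-galactose from its phosphate is assigned to inositol monophosphatases, which also act on inositol phosphate. IMP3 (Solyc11g012410.2) stood at 52.7, 67.3 and 77.4 CPM in JMJ6-OE and at 34.0, 34.0 and 33.0 CPM in WT. The WT libraries were almost equal and all lay under the lowest JMJ6-OE library, and IMP3 was 1.95-fold higher (log2 fold change 0.97 ± 0.14, adjusted p = 0.0025). IMP1 (Solyc04g014800.3) stood at 12.95, 8.67 and 7.45 CPM in JMJ6-OE and at 20.6, 17.9 and 19.5 CPM in WT. It was 1.99-fold lower without overlap (log2 fold change -0.99 ± 0.21, adjusted p = 0.0098). IMP2 (Solyc03g044890.1) had 1 or 2 counts in each library and was not tested.

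Neither of the final steps was called. L-galactose dehydrogenase LGALDH (Solyc01g106450.3), which oxidises L-galactose to the lactone, stood at 45.1, 41.4 and 48 CPM in JMJ6-OE and at 45.6, 40.5 and 43.5 CPM in WT. Its log2 fold change was 0.05 with a 95% interval of -0.16 to 0.27 (adjusted p = 0.69), and the sign turned with library totals alone. L-galactono-1,4-lactone dehydrogenase GLDH (Solyc10g079470.3), the mitochondrial enzyme that forms ascorbate, stood at 39.0, 30.4 and 28.7 CPM in JMJ6-OE and at 39.9, 41.5 and 38.6 CPM in WT. JMJ6-OE replicate 1 overlapped with WT while the other two lay lower, and the log2 fold change was -0.29 ± 0.13 (adjusted p = 0.12). Without JMJ6-OE replicate 1, GLDH was called lower at -0.43 (adjusted p = 0.0089, range over all alternatives 0.0089 to 0.31).

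Summed over the route, synthesis transcripts reached 451.9 ± 7.60 TMM-scaled FPKM in JMJ6-OE and 420.9 ± 22.2 in WT, a ratio of 1.07 that turned to 0.945 with the deposited FPKM. The order of levels differed between the groups. In JMJ6-OE the VTC2 gene of chromosome 6 was followed by the VTC2 gene of chromosome 2 (64.0 ± 0.52) and IMP3 (59.8 ± 11.3), which were within each other's spread, and then by GME-1 of chromosome 9. In WT it was followed by GME-1 of chromosome 9 and then by the VTC2 gene of chromosome 2 (48.9 ± 1.93) and IMP3 (30.6 ± 0.54). In both groups GME-1 of chromosome 1 and LGALDH did not differ beyond their spread.

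**Figure D2:**
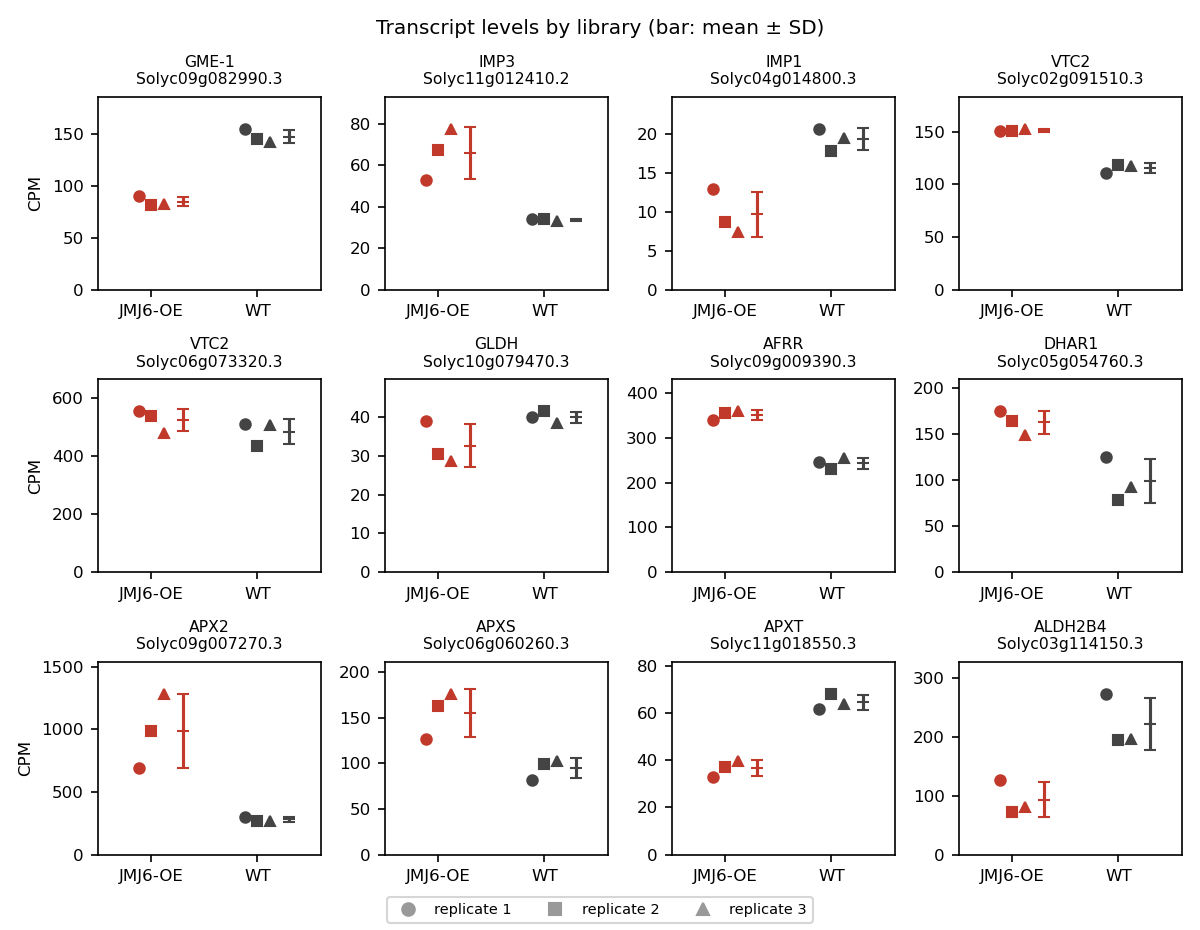
CPM on TMM-scaled library sizes (vertical axis from 0, linear) in each of the 3 JMJ6-OE and 3 WT libraries for 12 members of synthesis, recycling, oxidation and the aldehyde dehydrogenases, with the mean ± SD beside the points and a marker shape for each replicate number. The GME-1 and APXT panels show all JMJ6-OE libraries under WT, the IMP3, AFRR and APX2 panels show them above WT, and the panels of VTC2 on chromosome 6 and GLDH overlap.

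The uronic acid route, a proposed alternative supply through glucuronate or galacturonate whose enzymes also feed cell wall sugars, had 1 call among 8 tested genes. This share of 12.5% compares with 34.3% of all tested genes. That call was MIOX4 (Solyc12g008650.2), an inositol oxygenase, which opens inositol to glucuronate. It had 12, 4 and 1 counts in JMJ6-OE and 16, 151 and 36 counts in WT. The spread within WT was wide, with replicate 2 far above the other two, and the log2 fold change of -3.26 ± 0.98 (adjusted p = 0.04) rested on these few counts. It was no longer called when JMJ6-OE replicate 2 (0.14), JMJ6-OE replicate 3 (0.11), WT replicate 2 (0.12, log2 fold change -2.04) or WT replicate 3 (0.053) was left out, by limma-voom (0.083) or with the replicate number as a block (0.076). Its adjusted p ranged from 0.0024 to 0.14 over all alternatives. The most abundant gene of this route was UGD2 (Solyc02g088690.3), a UDP-glucose dehydrogenase, which makes UDP-glucuronate. UGD2 stood at 143.2, 167.1 and 200.9 CPM in JMJ6-OE and at 171.4, 214.4 and 197.4 CPM in WT, and these overlapped (log2 fold change -0.19 ± 0.15, adjusted p = 0.34). None of the 4 tested UDP-glucose dehydrogenase genes was called by edgeR, DESeq2 or limma-voom, with 1 at an unadjusted p under 0.05 (UGD1, Solyc02g067080.3, log2 fold change 0.24 ± 0.09, adjusted p = 0.076). A further 4 members of the route had no count in any library, including the D-galacturonate reductase-like gene GALUR (Solyc04g008440.1). The summed transcripts of the route were 203.1 ± 13.5 TMM-scaled FPKM in JMJ6-OE and 206 ± 18.4 in WT. Most of this came from UGD2 (103.8 in JMJ6-OE and 118.5 in WT) and UGD1 (76 and 64.5), so the sum says little about the other genes. The ratio of the sums was 0.986, or 0.862 with the deposited FPKM. By deposited FPKM the route stood at 189, 190.4 and 190.5 in JMJ6-OE and at 192.9, 243.4 and 224.8 in WT, without overlap.

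Oxidation carried the largest transcript pool of the members, nearly all of it from ascorbate peroxidases. All 9 ascorbate peroxidase genes were tested, of which 5 were higher, 2 were lower and 2 were not called. Calls thus covered 77.8% of them, against 34.3% of all tested genes. The summed level of the peroxidase genes was 1251, 1598 and 1898 TMM-scaled FPKM in the JMJ6-OE libraries and 926.7, 879.4 and 900.2 in the WT libraries. The lowest JMJ6-OE library lay above the highest WT library, and the ratio of the means was 1.75, or 1.53 with the deposited FPKM.

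Most of the additional transcript came from APX2 (Solyc09g007270.3), a cytosolic peroxidase on chromosome 9. APX2 stood at 692.9, 986.9 and 1283 CPM in JMJ6-OE and at 299.5, 271.1 and 268 CPM in WT. The WT libraries were close together, while JMJ6-OE replicate 3 was far above replicate 1. The gene rose 3.53-fold (log2 fold change 1.82 ± 0.22, adjusted p = 0.0013). It made up 44.5%, 49.6% and 54.3% of the summed peroxidase transcripts in JMJ6-OE and 26%, 24.8% and 23.9% in WT. The cytosolic APX1 gene Solyc06g005160.3 held 24%, 22.9% and 19.6% of the sum in JMJ6-OE, below APX2 in each library, and 27%, 28.4% and 30.2% in WT, above APX2 in each library.

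The genes Solyc06g005150.3 and Solyc06g005160.3, both named APX1, are neighbours on chromosome 6 with like descriptions, so reads may have been split between them. Solyc06g005150.3 stood at 170.1, 188.5 and 215 CPM in JMJ6-OE and at 145.2, 130.9 and 131.3 CPM in WT (log2 fold change 0.49 ± 0.11, adjusted p = 0.012). Solyc06g005160.3 stood at 379.9, 463.7 and 471.9 CPM in JMJ6-OE and at 316.6, 316.4 and 344.4 CPM in WT (log2 fold change 0.43 ± 0.12, adjusted p = 0.027). Both were higher in every JMJ6-OE library than in any WT library. The call of Solyc06g005150.3 was kept in each of the 6 fits without 1 library, in some only narrowly. Its adjusted p was 0.047 without JMJ6-OE replicate 2, 0.049 without WT replicate 2 and 0.05 after rounding without WT replicate 3. The call of Solyc06g005160.3 was kept without JMJ6-OE replicate 1 but lost without any other single library (adjusted p = 0.062 to 0.1) and with library totals alone (0.087). As a pair they reached 507.4 ± 57.3 TMM-scaled FPKM in JMJ6-OE and 371.8 ± 11.2 in WT, a ratio of 1.36.

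**Figure D3:**
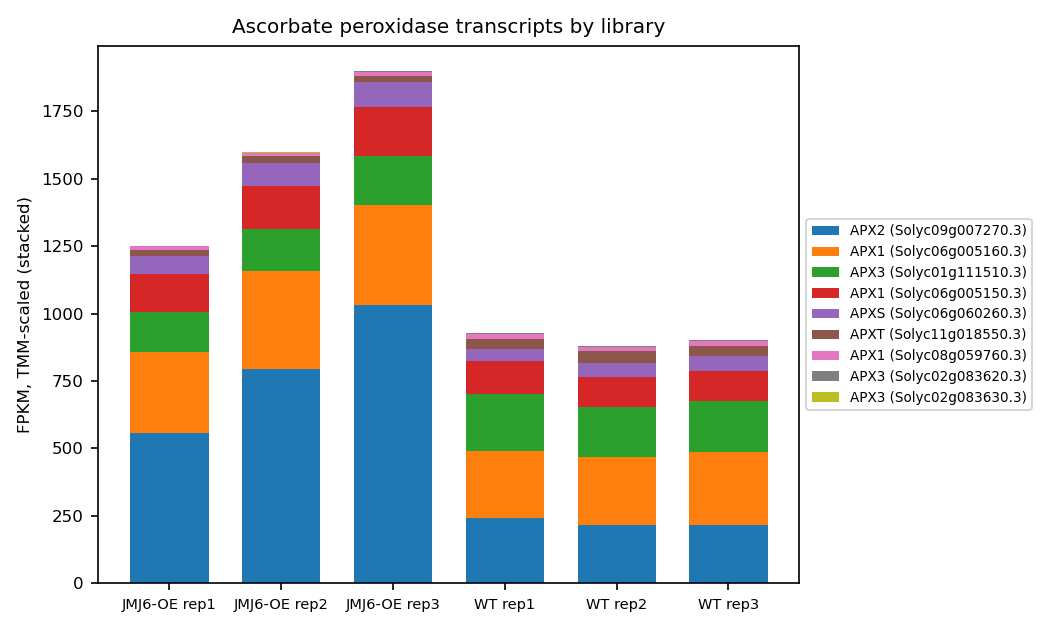
Summed level of the 9 ascorbate peroxidase genes in each library (vertical axis, TMM-scaled FPKM from 0, stacked by gene). JMJ6-OE libraries sum to 1251, 1598 and 1898 and WT libraries to 879.4 to 926.7, and the APX2 block is 44.5% to 54.3% of the stack in JMJ6-OE and 23.9% to 26% in WT.

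The plastid peroxidase genes moved apart. APXS (Solyc06g060260.3), described as the stromal form, stood at 126.2, 162.9 and 176.2 CPM in JMJ6-OE and at 81.9, 99.7 and 102.7 CPM in WT, which made it 1.64-fold higher without overlap (log2 fold change 0.71 ± 0.15, adjusted p = 0.0098). APXT (Solyc11g018550.3), described as bound to the thylakoid, stood at 32.9, 37.3 and 39.9 CPM in JMJ6-OE and at 61.8, 68.3 and 63.9 CPM in WT. It fell 1.76-fold, with all JMJ6-OE libraries well under WT (log2 fold change -0.82 ± 0.10, adjusted p = 0.0012). A gene with the symbol APX1 that is described as a probable chloroplastic peroxidase (Solyc08g059760.3) was also lower, at 25.1, 19.8 and 22.6 CPM in JMJ6-OE and 29.1, 28.7 and 28.1 CPM in WT. It is named although it ranked below the 6 oxidation genes that the naming rule allowed, a choice made after its values were seen. Its log2 fold change was -0.35 ± 0.11 (adjusted p = 0.044), and the call was kept without JMJ6-OE replicate 1 but lost without any other single library (adjusted p = 0.081 to 0.15), with the replicate number as a block (0.063) and with no filter beyond 1 count (0.051).

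Transcripts that mark green tissue were lower in JMJ6-OE as well. The 30 rows described as Rubisco small chain or chlorophyll a-b binding protein summed to 1770 to 2360 CPM in JMJ6-OE and to 6230 to 7230 CPM in WT, with 18 of 24 tested rows called lower, 1 called higher and 1 row at 0 in all libraries. Of all tested genes, 16.8% were called lower. In these bulk samples fewer cells of a type and less RNA per cell cannot be told apart, and the part of green tissue in the lower plastid genes was not tested.

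The remaining peroxidase genes are described as peroxisomal or lack a named compartment. APX3 on chromosome 2 (Solyc02g083630.3), described as peroxisomal, was scarce in WT, with 61, 153 and 69 counts in JMJ6-OE and 10, 11 and 21 counts in WT. It was 7.71-fold higher without overlap (log2 fold change 2.95 ± 0.45, adjusted p = 0.003). Its neighbour Solyc02g083620.3 overlapped between the groups (log2 fold change -0.06 ± 0.36, adjusted p = 0.92). Reads may have been split between these 2 rows as well, and together they reached only 2.41 ± 1.04 TMM-scaled FPKM in JMJ6-OE and 1.29 ± 0.24 in WT. The abundant peroxisomal APX3 gene on chromosome 1 (Solyc01g111510.3) stood at 186.5, 196.5 and 228 CPM in JMJ6-OE and at 269.6, 236.4 and 239.7 CPM in WT. It did not overlap but missed the threshold (log2 fold change -0.29 ± 0.11, adjusted p = 0.081). It was called lower by DESeq2 (adjusted p = 0.044), with upper-quartile scaling (0.03) and with library totals alone (0.0053), within a range of 0.0053 to 0.23 over all alternatives.

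Ascorbate oxidases, which act in the cell wall, were scarce in both groups. Of the 8 rows described as an ascorbate oxidase or a homolog, 4 had no count, 3 were tested and none was called by edgeR, DESeq2 or limma-voom, with 0 at an unadjusted p under 0.05 by edgeR. The AAO gene Solyc11g062440.2 stood at 3.25, 3.12 and 1.67 CPM in JMJ6-OE and at 3.55, 6.86 and 3.60 CPM in WT. The groups did not overlap, and the log2 fold change was -0.80 ± 0.36 (adjusted p = 0.13).

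Transcripts of recycling enzymes were mostly higher. Of the 6 recycling genes, all tested, 5 were called higher and DHAR3 was not called, where 17.5% of all tested genes were called higher. The summed level of the recycling genes was 433.4 ± 12.2 TMM-scaled FPKM in JMJ6-OE and 294 ± 24.1 in WT (SD, n = 3), a ratio of 1.47, or 1.3 with the deposited FPKM.

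All 3 monodehydroascorbate reductase genes were higher, by similar log2 fold changes of 0.47 to 0.56. The most abundant of them, AFRR (Solyc09g009390.3), stood at 339.5, 357.2 and 359.8 CPM in JMJ6-OE and at 245.6, 231 and 255.7 CPM in WT (log2 fold change 0.53 ± 0.09, adjusted p = 0.0048). MDAR5 (Solyc08g081530.3) stood at 113.2, 116.4 and 115.6 CPM in JMJ6-OE and at 80.2, 88.45 and 80.8 CPM in WT (log2 fold change 0.47 ± 0.08, adjusted p = 0.004). Both had a narrow spread and no overlap. MDAR4 (Solyc02g086710.3) was more uneven in JMJ6-OE, at 105.6, 134.7 and 167 CPM, than in WT, at 92.3, 90.3 and 93.7 CPM (log2 fold change 0.56 ± 0.16, adjusted p = 0.03). Its call was kept without JMJ6-OE replicate 1 but lost without any other single library (adjusted p = 0.064 to 0.09) and with library totals alone (0.057).

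Dehydroascorbate reductase genes differed among themselves. DHAR1 (Solyc05g054760.3), the most abundant recycling transcript per length by the mean over all libraries, stood at 174.2, 163.6 and 149.1 CPM in JMJ6-OE and at 125.1, 78.7 and 91.9 CPM in WT. It was 1.65-fold higher without overlap (log2 fold change 0.72 ± 0.17, adjusted p = 0.016), and the adjusted p passed 0.05 when JMJ6-OE replicate 2 (0.056), WT replicate 2 (0.056) or WT replicate 3 (0.068) was left out. DHAR3 (Solyc11g011250.2) ran the other way, at 41.2, 46.3 and 58.7 CPM in JMJ6-OE and 62.2, 63.7 and 58.2 CPM in WT. Only JMJ6-OE replicate 3 reached the WT range, and the gene missed the threshold (log2 fold change -0.33 ± 0.13, adjusted p = 0.094). DHAR3 was called lower without that library (-0.48, adjusted p = 0.019), with upper-quartile scaling (0.039) and with library totals alone (0.0099), within a range of 0.0099 to 0.25 over all alternatives. The row Solyc04g064470.2, described as a partial dehydroascorbate reductase, carries the symbol SPL12 of a transcription factor family, so its identity is uncertain. It stood at 11.4, 10.6 and 10.2 CPM in JMJ6-OE and at 4.12, 4.41 and 3.63 CPM in WT (log2 fold change 1.40 ± 0.14, adjusted p = 0.00067).

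The 16 aldehyde dehydrogenase rows, a broad family of detoxifying enzymes that the pathway map lists for oxidation of sugar aldehydes, had 2 higher and 2 lower calls among 9 tested. Their called share was 44.4%, against 34.3% of all tested genes. ALDH7B4 (Solyc03g122310.3), whose Arabidopsis namesake is known as a stress-responsive turgor protein, stood at 244.6, 302.1 and 312.3 CPM in JMJ6-OE and at 177.6, 186.6 and 178.3 CPM in WT (log2 fold change 0.66 ± 0.11, adjusted p = 0.0048). ALDH2B7 on chromosome 8 (Solyc08g007890.3) had 48, 91 and 63 counts in JMJ6-OE and 10, 5 and 0 counts in WT (log2 fold change 3.87 ± 0.82, adjusted p = 0.011), and its call was lost without WT replicate 2 (adjusted p = 0.056). ALDH2B4 (Solyc03g114150.3) fell 2.38-fold, to 126.3, 71.9 and 81.3 CPM in JMJ6-OE, against 272.8, 194.6 and 196.9 CPM in WT (log2 fold change -1.25 ± 0.24, adjusted p = 0.009). The family 3 gene Solyc06g060250.3 was lower at 41.8, 39.3 and 38.9 CPM in JMJ6-OE and 54.4, 54.9 and 67.65 CPM in WT (log2 fold change -0.56 ± 0.11, adjusted p = 0.0074). Its identifier is next to that of APXS, which was higher. The most abundant family member, ALDH2B7 on chromosome 5 (Solyc05g005700.3), had 167.2 ± 19.8 TMM-scaled FPKM in JMJ6-OE and 195.2 ± 10.6 in WT. It missed the threshold (log2 fold change -0.22 ± 0.12, adjusted p = 0.18) but was called lower with library totals alone (adjusted p = 0.048, range over all alternatives 0.048 to 0.49).

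Among the other members, UDP-sugar pyrophosphorylase USP (Solyc04g058070.3), which charges monosaccharide phosphates to UDP-sugars, stood at 31.2, 29.3 and 35.5 CPM in JMJ6-OE and at 20.2, 19.9 and 19.9 CPM in WT (log2 fold change 0.67 ± 0.10, adjusted p = 0.0029). The row Solyc04g074640.3, described as the thylakoid lumenal 29 kDa protein, a relative of the ascorbate peroxidases, was low in abundance. It stood at 1.52, 1.55 and 1.78 CPM in JMJ6-OE and at 4.06, 3.98 and 3.60 CPM in WT (log2 fold change -1.26 ± 0.20, adjusted p = 0.0035). It was lower in JMJ6-OE, as was the thylakoid-bound APXT. The most abundant of these members, the glutaredoxin GRXS6 (Solyc02g084660.3), and the phosphatase HISN7 (Solyc01g109930.3) were not called, with log2 fold changes of 0.11 ± 0.15 and 0.18 ± 0.13.

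Genes that supply or use the same cycle but are not among the 66 members were listed by their descriptions. Rows described as a glutathione S-transferase, of which 5 carry the pathway code, could enter this list. Of its 42 tested genes, 16 were higher and 4 lower, with a median log2 fold change of 0.16. Over all tested genes 17.5% were higher and 16.8% lower, and with library totals alone the listed genes had 12 higher and 6 lower calls. Upstream of the epimerase, 3 of 9 tested genes of the mannose branch were called, all of them higher, a called share of 33.3% against 34.3% over all tested genes. They included a mannose-1-phosphate guanylyltransferase (CYT1, Solyc09g011220.3, log2 fold change 0.79 ± 0.14, adjusted p = 0.0054), which makes GDP-mannose. The phosphomannomutase PMM (Solyc05g048760.3) was higher at 0.43 ± 0.08 (adjusted p = 0.0079), and its call was lost with library totals alone (0.07). The isomerase PMI1 (Solyc06g060100.3) was higher at 0.52 ± 0.15 (adjusted p = 0.034), which was no longer called when JMJ6-OE replicate 2 (0.11) or 3 (0.1) or WT replicate 1 (0.086) or 2 (0.088) was left out, or with library totals alone (0.14). The most abundant gene of this branch, the GDP-mannose pyrophosphorylase Solyc03g096730.3, was not called (0.40 ± 0.19, adjusted p = 0.15).

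Glutathione reductase regenerates the glutathione that dehydroascorbate reductases use, and glutathione peroxidases reduce peroxides, in plants largely with thioredoxin. Both families held higher genes. The glutathione reductase GOR (Solyc09g065900.3), described as chloroplastic, stood at 99.2, 120.7 and 128.5 CPM in JMJ6-OE and at 69.0, 67.7 and 67.1 CPM in WT (log2 fold change 0.77 ± 0.11, adjusted p = 0.0022). The more abundant glutathione reductase Solyc09g091840.3 overlapped (log2 fold change -0.12 ± 0.09, adjusted p = 0.32), and was called lower with library totals alone (adjusted p = 0.028, range over all alternatives 0.028 to 0.51). Of 6 tested glutathione peroxidases 3 were called, all of them higher, a share of 50% against 34.3% over all tested genes. They were led by GPXle-1 (Solyc08g080940.3, log2 fold change 1.15 ± 0.11, adjusted p = 0.00047) and GPX2 (Solyc06g073460.3, 0.79 ± 0.10, adjusted p = 0.0014). The most abundant, GPX1 (Solyc08g006720.3), was higher at 0.51 ± 0.14 (adjusted p = 0.026), which did not hold when JMJ6-OE replicate 2 or 3 or WT replicate 1 or 3 was left out (0.076 to 0.084) or with library totals alone (0.085). Of the 5 dehydroascorbate reductase rows described as glutathione S-transferases, 2 were tested and DHAR1 on chromosome 9 (Solyc09g056180.3) was higher at 1.32 ± 0.32 (adjusted p = 0.018), which did not hold when JMJ6-OE replicate 2 (0.074), WT replicate 1 (0.055) or WT replicate 3 (0.069) was left out.

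Superoxide dismutases, which make the hydrogen peroxide that ascorbate peroxidases remove, moved in both directions. Of the 8 tested rows, 1 of which is a copper chaperone of these enzymes, 5 were higher and 1 was lower. This was a called share of 75%, against 34.3% over all tested genes. The copper-zinc gene SODCC.5 (Solyc01g067740.3) stood at 709, 934.6 and 1158 CPM in JMJ6-OE and at 232.2, 271.7 and 230 CPM in WT (log2 fold change 1.93 ± 0.19, adjusted p = 0.00061). The manganese gene SODA (Solyc06g049080.3) was higher at 0.86 ± 0.10 (adjusted p = 0.0012). The iron gene SODB (Solyc06g048410.3) fell to 222.3, 280.3 and 294.5 CPM in JMJ6-OE, against 559.7, 621 and 603.8 CPM in WT (log2 fold change -1.16 ± 0.13, adjusted p = 0.001).

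Catalases remove hydrogen peroxide without ascorbate. CAT3 (Solyc04g082460.3) was higher at 0.81 ± 0.14 (adjusted p = 0.0047) and CAT2 (Solyc02g082760.3) lower at -0.54 ± 0.12 (adjusted p = 0.014). Another call, for CAT1 on chromosome 1 (Solyc01g100630.2, 0.47 ± 0.15, adjusted p = 0.049), was lost in each of the 6 fits that left out 1 library (0.054 to 0.13), with upper-quartile scaling (0.075), with no filter beyond 1 count (0.058), with the filter of 1 CPM (0.05 after rounding), with the replicate number as a block (0.064) and with library totals alone (0.23). The dominant catalase transcript, CAT1 on chromosome 12 (Solyc12g094620.2), stood at 3926, 4753 and 5670 CPM in JMJ6-OE and at 4631, 4409 and 4076 CPM in WT, which overlapped (0.13 ± 0.19, adjusted p = 0.62).

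Of 8 tested nucleobase-ascorbate transporters, a family named for its relatives in mammals, 1 was higher and 2 were lower. The called share of 37.5% was near the 34.3% over all tested genes. NAT6 on chromosome 6 (Solyc06g071330.3) fell to 5.14, 3.39 and 3.41 CPM in JMJ6-OE, against 13.2, 9.94 and 11.4 CPM in WT (log2 fold change -1.53 ± 0.21, adjusted p = 0.0022). Solyc05g006020.3 on chromosome 5, with the symbol NAT6 but described as nucleobase-ascorbate transporter 7, was higher at 1.68 ± 0.38 (adjusted p = 0.014). This call did not hold when JMJ6-OE replicate 2 (0.056) or WT replicate 2 (0.059) was left out. NAT12 (Solyc11g066900.2) was lower at -0.46 ± 0.14 (adjusted p = 0.035), a call kept without JMJ6-OE replicate 1 (0.014) but lost without any other single library. The most abundant, NAT6 on chromosome 12 (Solyc12g026430.2), was not called (0.09 ± 0.08, adjusted p = 0.42).

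**Figure D4:**
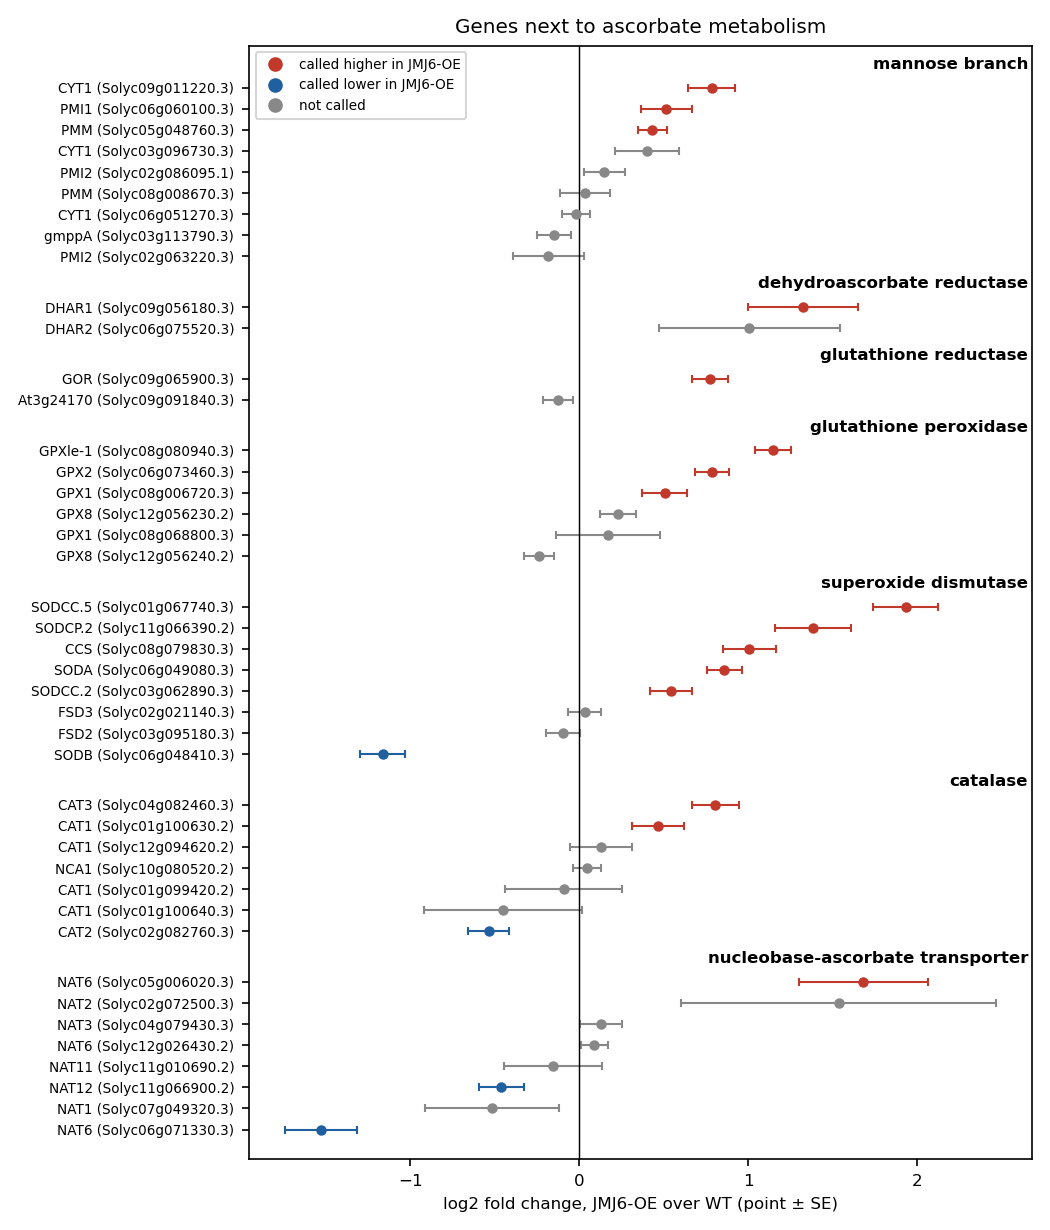
Log2 fold change of JMJ6-OE over WT (horizontal axis, point ± SE, n = 3 libraries per group). Shown are the 42 tested genes listed beside the members, grouped by function. SODCC.5 at 1.93 and SODB at -1.16 stand on opposite sides among the superoxide dismutases, and 3 of 6 glutathione peroxidases were called higher.

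Markers of other tissues were summed in the same way. For the counts of calls given with them, 17.5% of all tested genes were called higher and 16.8% lower. The 51 seed rows, described as oleosin, vicilin, legumin or late embryogenesis abundant protein, summed to 126 to 169 CPM in JMJ6-OE and to 64.1 to 75.6 CPM in WT, with 2 of 13 tested rows called, both higher, and 19 rows at 0. An oleosin gene (Solyc06g060840.1) stood at 24.75, 51.8 and 61.9 CPM in JMJ6-OE and at 4.12, 7.41 and 4.40 CPM in WT. The other 3 tested oleosin rows were not called and had log2 fold changes of -0.65, -0.35 and -0.12 (Solyc08g078160.3, Solyc08g066040.1 and Solyc07g065985.1). The highest vicilin-like row (Solyc11g072380.2) stood at 3.10, 3.15 and 3.705 CPM in JMJ6-OE and at 2.67, 2.43 and 2.57 CPM in WT and was not called. Phloem rows summed to 68.6 to 89.6 CPM in JMJ6-OE and 56.5 to 69.3 CPM in WT (5 higher and 3 lower of 11 tested, 2 of 17 rows at 0). Xylem rows summed to 27 to 34.7 CPM in JMJ6-OE and 29.9 to 33 CPM in WT (2 called of 8 tested, both lower, 16 of 33 rows at 0), and cuticle rows to 155 to 260 CPM in JMJ6-OE and 103 to 168 CPM in WT (1 row tested and not called, 1 of 5 rows at 0). The part of these tissues in the differences above was not tested.

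In the authors' deposited table, 23 of the 48 tested members had a false discovery rate under 0.05, and all 23 were the members called here. Those values rest on the same 6 libraries, so they are not independent support.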

How the data were processed

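Pericarp mRNA of 3 JMJ6-OE and 3 WT samples was sequenced on Illumina libraries, per the labels' protocols. Samples were grouped by their titles. The submitters' processing notes name HISAT2. No version, read counter, genome build, annotation or strand setting is given in the sources used here. Per the file headers, the deposited table holds raw counts and FPKM for each gene and library, with the authors' log2 fold change, p-value and false discovery rate from an unnamed test. Gene names, descriptions and pathway codes come from that table. The deposited FPKM follow library totals: over 2695 genes with high counts, the log2 ratio of count share to FPKM varied between libraries by at most 0.00095.

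Counts were tested with edgeR 4.0.16 in R 4.3.3 (filterByExpr with a minimum count of 10, TMM scaling, robust quasi-likelihood test of genotype, Benjamini-Hochberg adjustment at 0.05 over 20143 genes). The SE was taken as the size of the log2 fold change over the square root of F. CPM use TMM-scaled library sizes, and TMM-scaled FPKM are the deposited FPKM divided by the TMM factor. A floor of 3 counts equals 0.082 to 0.11 CPM and covers counting error only. The common biological coefficient of variation was 0.21, and a chi-square of counts per degree of freedom was 19.2 to 71.8 between replicates, so none was treated as a copy. The fits were tested on simulated counts.

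Other settings tried were DESeq2 1.42.0, limma-voom (limma 3.58.1), scaling by RLE or by the upper quartile, omission of each library, a block for replicate number, and filters of 1 CPM in 3 libraries or of only 1 count in all. Scaling to library totals alone was added after seeing the data. The members, roles, lists and tests were chosen with earlier results of these data known. Named with values are, in each role, up to 6 called members by adjusted p, the most abundant member and every synthesis gene. In each list beside the members these are up to 3 called genes and the most abundant. Outside this rule, and chosen after their values were seen, are DHAR3, the APX3 rows Solyc01g111510.3 and Solyc02g083620.3, APX1 Solyc08g059760.3, AAO Solyc11g062440.2, UGD1, GALUR, HISN7 and the seed marker rows. The reference gene table, of assembly SLM_r2.1, matched 0 member identifiers, so no sequences or promoters were used here. Figures were drawn with matplotlib 3.10.9.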

Additional observations from a re-analysis of the deposited data

How the results depend on the processing

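Of the 23 called members, 17 were called in each of the 6 fits that left out 1 library, 18 in each other alternative that tested them, and 16 in all of these. Over members and neighbouring genes, 1173 alternative values kept their call status, 63 lost a call, 15 gained one and 0 changed direction while called. The 1173 include values that changed sign where the gene was called neither by the main fit nor by the alternative. Without 1 library, genes called higher ranged from 2027 to 4169 and lower from 2046 to 3962, with the lowest counts of both without JMJ6-OE replicate 2. Members called higher ranged from 11 to 15 and lower from 6 to 9, and genes listed beside the members from 10 to 15 and 3 to 5. By role, the ranges were 2 to 2 higher and 2 to 3 lower for synthesis, 0 to 0 higher and 0 to 1 lower for the uronic acid route, 3 to 5 higher and 0 to 1 lower for recycling, 4 to 5 higher and 1 to 2 lower for oxidation, and 1 to 2 higher and 2 to 2 lower for aldehyde dehydrogenases. Scaling to library totals alone, chosen after seeing the data, gave 2231 genes higher, 1 synthesis gene higher and 1 recycling gene lower, and upper-quartile scaling also gave 1 recycling gene lower. The uronic acid call was 0 by limma-voom and with the filter of 1 CPM, which left MIOX4 untested, and oxidation had 1 lower gene with no filter. Library totals turned the sign of 8 tested members, none of them called by edgeR. Low counts limit MIOX4, APX3 on chromosome 2 and ALDH2B7 on chromosome 8.

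With the replicate number as a block, 3024 genes were higher and 2964 lower, members numbered 15 and 6, the uronic acid route had 0 lower and oxidation 1 lower. Same-numbered libraries deviated with correlations of 0.064, 0.032 and -0.06, so the numbers were not taken to pair the libraries, and JMJ6-OE replicates 2 and 3 correlated best with another number (0.086 and 0.042).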
